A study of Homo sapiens with 16 samples.

Results

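The 80 cytosolic ribosomal protein genes measured in these glioma cells encode 50 proteins of the large and 30 of the small ribosomal subunit. They were taken by name, as every gene whose symbol is RPL, RPS or RPLP followed by a number, with an optional A, X, L or AL, together with RPSA, and they are 80 of the 20314 genes in the U251 tables and of the 20626 in the U343 tables. The rule itself used no measured value, but the members were chosen with earlier results of these data known. FAU, whose symbol the rule leaves out, is counted below among other genes.

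U251 and U343 are human glioblastoma cell lines. A mimic of the microRNA miR-137 or a control mimic was transfected at 25 nM, and the cells were harvested 48 hours later. RNASeq measured total RNA, and RIPSeq measured the RNA recovered with antibodies to poly(A)-binding protein (PABP), which sits on the poly(A) tails of mRNAs. Each line, assay and transfection had 2 libraries, 16 in all. The level of the mature microRNA was not analysed here, and each line is a single cell line with 2 libraries per group. The labels do not say whether the 2 libraries came from separate cultures, so the p-values measure only the spread between these libraries, which may be technical. Libraries of the U251 line were primed with random hexamers and those of the U343 line were made with the TotalScript kit.

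A ribosomal protein is a structural part of the ribosome, and the cell needs nearly all of them in equal amounts. Their mRNAs are long known for a 5′ terminal oligopyrimidine (TOP) tract, a C at the first transcribed base followed by a run of C and T. Through this tract their translation and stability follow growth signals of the mTOR pathway. A microRNA acts by pairing its seed, bases 2 to 8, with sites in mRNAs, which are then less translated and less stable. The mature sequence of miR-137 (RefSeq, GRCh38.p14, chr1:98046091-98046113, minus strand) is shown because every transfection comparison rests on it, with the seed in capitals.
hsa-miR-137-3p: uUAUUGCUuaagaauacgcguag

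Start sequences from RefSeq (GRCh38.p14) were found for 64 of the 80 members. Windows of 30 bases, 15 before the annotated start and 15 from it on, are given for 12 members that the results below turn on. They are the 6 that were lower after miR-137 in 3 of the 4 transfection comparisons (RPL11, RPL9, RPS13, RPL3, RPL10A and RPL15), then RPLP0, RPS6 and RPS26, which fell in U251 total RNA and U343 PABP-bound RNA, and RPL36AL and RPL28, which were higher in U251 total RNA, with the paralog RPS27L. Capitals mark the longest unbroken run of C and T in the window.
RPL11, chr1:23691791-23691820, plus strand: cggaagctccgCTTTCTCTTCCTgctctcc
RPL9, chr4:39458908-39458937, minus strand: gtacgtaatgacgacagacgTTCTTTCTTT
RPS13, chr11:17077653-17077682, minus strand: ttccactctcgCTCTCCTTTCgttgcctga
RPL3, chr22:39319609-39319638, minus strand: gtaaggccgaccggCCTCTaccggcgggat
RPL10A, chr6:35468386-35468415, plus strand: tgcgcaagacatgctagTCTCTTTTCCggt
RPL15, chr3:23917117-23917146, plus strand: cccaaaaggcattgtgggagtacagCTCTT
RPLP0, chr12:120201097-120201126, minus strand: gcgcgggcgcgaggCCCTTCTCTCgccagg
RPS6, chr9:19380222-19380251, minus strand: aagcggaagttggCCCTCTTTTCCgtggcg
RPS26, chr12:56041903-56041932, plus strand: gagacacataacctcgaTTTTCTTCCgcca
RPL36AL, chr14:49620612-49620641, minus strand: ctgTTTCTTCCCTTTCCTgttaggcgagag
RPL28, chr19:55385917-55385946, plus strand: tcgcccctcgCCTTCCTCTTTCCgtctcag
RPS27L, chr15:63157463-63157492, minus strand: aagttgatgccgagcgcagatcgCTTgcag

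A run of at least 8 pyrimidines lay in the window of 51 of the 64 members (79.7%), against 16.5% of the 27305 genes with a start sequence. The annotated start was a C followed by at least 4 pyrimidines in 45 members (70.3%), against 5.14% of those genes. The letters CTTTCC, which lie inside such runs, occurred on the transcribed strand in 20 members (31.25%) against 1.98%, and on the other strand in 1 member (1.56%) against 1.48%. Where a gene had several annotated starts, the one with the longest run was used for members and other genes alike. RPL36AL holds a run of 15, RPL28 a run of 13 and RPS27L no run over 3. The run of RPL36AL begins 12 bases before its annotated start, a C followed by only 2 pyrimidines, so RPL36AL is not among the 45. The annotated starts of RPL9, RPL10A and RPS26 are not a C. Among the 6 members lower in 3 comparisons, RPL3 and RPL15 hold no run over 5. These matches describe letters around annotated starts, which may lie some bases from the starts used in these cells.

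Depth was 10156675 to 30731476 counted reads per library in U251 and 37736206 to 45134766 in U343. In U251 RNASeq the 2 miR-137 libraries, with 10260834 and 10156675 reads, were shallower than their controls, with 16886287 and 18224061, and the part of depth in the results below was not tested. The U251 RIPSeq control libraries stood apart from each other. Over genes with at least 10 reads, the median absolute log2 difference between them was 0.64, against 0.08 to 0.22 within the other 7 groups, and over the members it was 0.65. As a check on the transfection, CDK6, a known target of miR-137, had log2 fold changes of -3.53 in U251 RNASeq, -3.53 in U251 RIPSeq, -2.78 in U343 RNASeq and -3.20 in U343 RIPSeq. In U251 RIPSeq, with 7414 and 25912 reads in the controls, the change of CDK6 did not pass (edgeR, adjusted p = 0.0798). Of the glioma markers, VIM, NES, CD44 and SOX2 were above 69 CPM (reads per 1000000 counted reads) in every library, OLIG2 was at most 0.323 CPM, S100B was 0.174 to 1.69 CPM in U251 and 2.11 to 9.80 in U343, and GFAP was 3.16 to 31.2 CPM in U251 and 3016 to 7739 in U343. Leukocyte and epithelial markers (PTPRC, CD3E and EPCAM) did not exceed 0.695 CPM, and the melanocyte marker TYR did not exceed 0.185. The neuronal marker SNAP25 reached 8.57 CPM in U251. Of the endothelial markers, CDH5 reached 32.5 CPM in U343, while PECAM1 was at most 1.53.

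The first question was how much of each RNA pool the members took up, and whether miR-137 changed it. In U251 total RNA they held 2.46% and 2.99% of the counted reads in the control libraries and 1.57% and 1.78% in the miR-137 libraries, with means of 2.72% ± 0.37 and 1.67% ± 0.15 (SD, n = 2). The groups did not overlap. In U251 PABP-bound RNA the shares were 3.41% and 2.13% in controls and 2.11% and 2.10% after miR-137, so that the higher control library alone separated the means. In U343 total RNA the shares were 3.88% and 4.20% in controls and 3.94% and 3.47% after miR-137, and the groups overlapped. In U343 PABP-bound RNA they were 3.93% and 3.83% in controls and 2.95% and 2.89% after miR-137, means of 3.88% ± 0.07 and 2.92% ± 0.04 (SD, n = 2), with no overlap. No test was made on the shares.

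**Figure D1:**
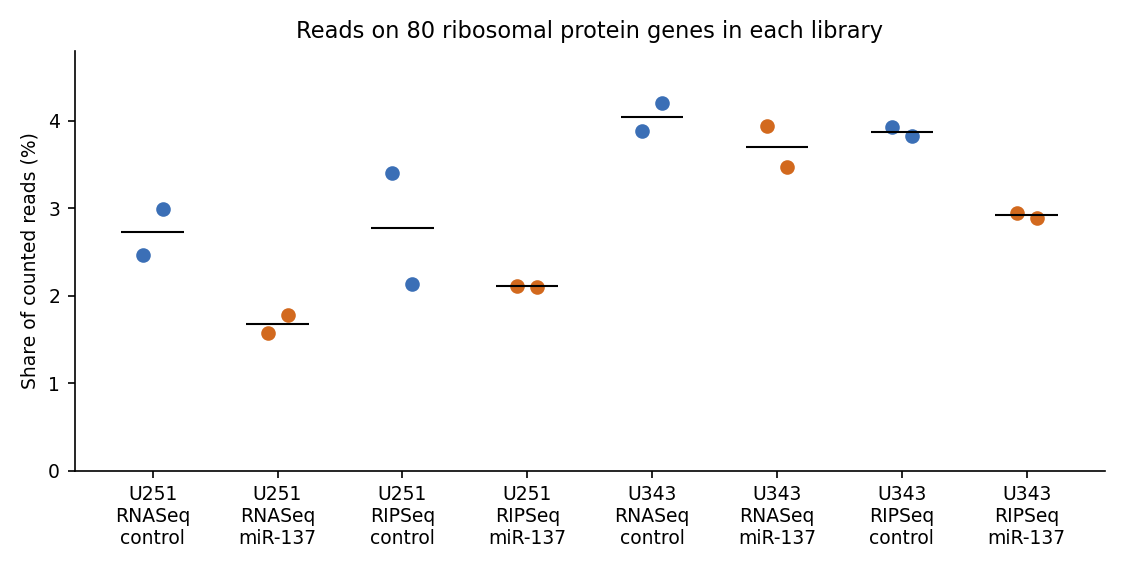
Share of each library's counted reads (percent, linear axis from 0) that fell on the 80 members, 1 point per library, blue for control and orange for miR-137, with a bar at the group mean. The miR-137 libraries lie below both controls in U251 RNASeq (1.57% and 1.78% against 2.46% and 2.99%) and in U343 RIPSeq (2.95% and 2.89% against 3.93% and 3.83%).

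In total RNA of U251 cells nearly the whole set was lower after miR-137. Of 77 members tested, 67 were lower and 2 higher (edgeR, adjusted p under 0.05), while 29.0% of all 13052 genes tested were lower and 28.7% higher. Their median log2 fold change was -0.92, or 52.8% of the control level, against 0.02 over all genes, and the middle 50% of members lay between -1.19 and -0.66. The miR-137 libraries were both below both controls for 69 of the 77 members, and the same count over all genes is not given here. Of the small-subunit members 28 of 30 were lower (median -1.05), and of the large-subunit members 39 of 47 (median -0.87). RPL21, RPL3L and RPL10L had too few reads to be tested. In bulk RNA, fewer transcripts per cell and a changed make-up of the RNA pool cannot be told apart.

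Each library is given here as CPM scaled over the 8 libraries of its line. RPLP0, the core of the ribosomal stalk that binds elongation factors, was at 700 and 976 CPM in the controls and 191 and 255 after miR-137. Its level after miR-137 was 26.3% of the control, a log2 fold change of -1.93 ± 0.19 (SE, adjusted p = 1.90e-06). Its stalk partners RPLP1 and RPLP2 fell less, with log2 fold changes of -0.49 ± 0.16 (SE, adjusted p = 0.019) and -0.55 ± 0.16 (SE, adjusted p = 0.0109). RPL15, a large-subunit protein, went from 363 and 413 to 101 and 121 CPM, a change of -1.82 ± 0.15 (SE, adjusted p = 3.06e-07). RPL7, the lowest of all members, changed by -2.22 ± 0.32 (SE, adjusted p = 5.85e-05), but it held only 1.31 to 8.19 CPM in these libraries.

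RPL11 and RPL5, which join 5S ribosomal RNA in a particle that also binds the p53 regulator MDM2, were both lower. RPL11 was at 911 and 1220 CPM in controls and 329 and 363 after miR-137, a log2 fold change of -1.64 ± 0.17 (SE, adjusted p = 2.78e-06). RPL5 was at 660 and 747 and 278 and 349 CPM, a change of -1.18 ± 0.15 (SE, adjusted p = 2.49e-05). In neither gene did the groups overlap. RPS6, the small-subunit protein that S6 kinase phosphorylates, went from 1939 and 2473 to 735 and 811 CPM, a change of -1.53 ± 0.17 (SE, adjusted p = 5.69e-06). RPSA, also known as the laminin receptor, changed by -1.22 ± 0.16 (SE, adjusted p = 3.31e-05), RPS26 by -1.79 ± 0.20 (SE, adjusted p = 5.51e-06), and RPS27A, which is made as a fusion with ubiquitin, by -1.09 ± 0.16 (SE, adjusted p = 6.35e-05). All 14 members on a list of genes mutated in Diamond-Blackfan anemia were lower, with a median of -1.11. So were all 9 members that line or surround the peptide exit tunnel, with a median of -0.82. Most of all 77 members tested were lower, with a median of -0.92, so these counts are not particular to either list.

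RPL36AL and RPL28 moved the other way in U251 total RNA. RPL36AL, an intronless copy of RPL36A, was at 62.2 and 73.2 CPM in controls and 90.9 and 97.4 after miR-137, a log2 fold change of 0.46 ± 0.13 (SE, adjusted p = 0.00916). RPL28 was at 58 and 59.1 and 74.9 and 82 CPM, a change of 0.40 ± 0.13 (SE, adjusted p = 0.0144). Both miR-137 libraries were above both controls for these 2 members only. The 8 members without a call had log2 fold changes from -0.35 (RPL38) to 0.08 (RPL41). The paralogs RPS27L, a p53-induced copy of RPS27, and RPL39L, a copy of RPL39 best known from testis, fell by 0.69 and 0.66 on the log2 scale (adjusted p = 0.000924 and adjusted p = 0.00999), and their partners RPS27 and RPL39 fell by 1.81 and 0.54 (adjusted p = 0.00519 and adjusted p = 0.0123). RPS27 rested on 19 and 32 reads in the controls and 6 and 4 after miR-137.

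Some members can share reads with pseudogenes or overlapping genes, and the part of shared reads in these changes was not tested. Of the 23 tested members with fewer than 10 annotated pseudogenes and no overlapping gene, 17 were lower (73.9%), with a median of -0.69. Of the 26 tested members that carry a small nucleolar RNA (snoRNA) row inside them all were lower, with a median of -0.98, and of the other 51, 41 were lower, with a median of -0.86. In a joint fit of the 8 U251 libraries 45 members were lower and none higher, and without the second control library 56 were lower and 1 higher.

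In U343 total RNA only a few members passed the test. Of 79 tested, 6 were lower (7.59%) and none higher, while 11.7% of all 15088 genes were lower and 8.31% higher. The 6 were RPL11, RPL9, RPS13, RPL3, RPL10A and RPL15, of which RPL10A and RPL15 were singled out here after their values were seen. The median over the members was -0.10, against 0.02 over all genes, and the middle 50% lay between -0.19 and 0.03. The 13 members with an unadjusted p under 0.05 include these 6, and the share of all genes at that threshold is not given here. These calls did not hold when either control library was left out, and more members passed without either miR-137 library. A lone library has no spread of its own, and the share of all genes in these fits is not given here.

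RPL11 was the lowest member. It was at 269 and 305 CPM in the U343 controls and 95 and 119 after miR-137, 37.6% of the control level (log2 fold change -1.41 ± 0.15 (SE, adjusted p = 0.0104)). RPL9, a large-subunit protein, was at 434 and 470 and 189 and 221 CPM, a change of -1.12 ± 0.12 (SE, adjusted p = 0.0102). RPS13, a small-subunit protein, was at 124 and 133 and 64.1 and 69.1 CPM, a change of -0.93 ± 0.10 (SE, adjusted p = 0.0102). The groups did not overlap for any of these 3. RPL3, which shapes the peptidyl transferase center, changed by -0.68 ± 0.09 (SE, adjusted p = 0.0163), RPL10A by -0.67 ± 0.09 (SE, adjusted p = 0.0168) and RPL15 by -0.66 ± 0.08 (SE, adjusted p = 0.0118). The next member, RPL37, stood at -0.49 and did not pass (adjusted p = 0.0511). RPLP0 and RPS6, which fell strongly in U251, had -0.25 ± 0.11 (SE, adjusted p = 0.179) and -0.12 ± 0.10 (SE, adjusted p = 0.447) in U343, and did not pass.

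**Figure D2:**
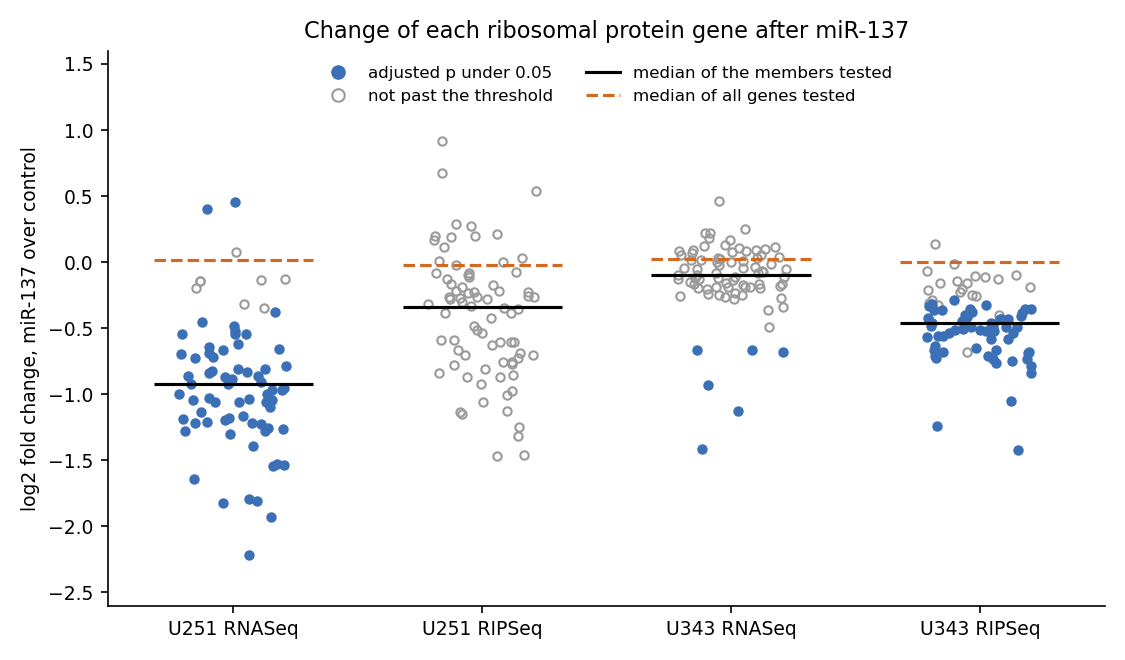
Log2 fold change (miR-137 over control) of each member tested in the 4 comparisons, 1 point per gene, filled where the adjusted p was under 0.05, with the median of the members (solid) and of all genes tested (dashed). The members' medians are -0.92 in U251 RNASeq, -0.34 in U251 RIPSeq, -0.10 in U343 RNASeq and -0.46 in U343 RIPSeq, and all 4 medians over all genes lie between -0.02 and 0.02.

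In U343 PABP-bound RNA the fall was broad and smaller per gene. Of 79 members tested, 58 were lower (73.4%) and none higher, while 27.8% of all 14866 genes were lower and 28.5% higher. In either direction, 56.3% of all genes passed. The median was -0.46, or 72.8% of the control level, against 0.00 over all genes, with the middle 50% between -0.61 and -0.32. The miR-137 libraries were both below both controls for 73 of the 79 members, and the same count over all genes is not given here. Of the small-subunit members 24 of 30 were lower, and of the large-subunit members 34 of 49. Of the 24 members with fewer than 10 pseudogenes and no overlapping gene 13 were lower (54.2%). Fewer members were lower without the first control library, and leaving out other libraries gave numbers on either side of 58. A lone library has no spread of its own, and the share of all genes in these fits is not given here.

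The lowest were the same 3 genes as in U343 total RNA. RPL11 was at 393 and 373 CPM in controls and 147 and 136 after miR-137, a log2 fold change of -1.42 ± 0.09 (SE, adjusted p = 1.73e-05). RPL9 was at 485 and 478 and 211 and 193 CPM, a change of -1.24 ± 0.10 (SE, adjusted p = 3.51e-05), and RPS13 at 148 and 148 and 70.5 and 70.8 CPM, a change of -1.05 ± 0.08 (SE, adjusted p = 3.11e-05). All 3 had no overlap between groups. The 3 stalk genes fell together, RPLP0 by 0.65, RPLP1 by 0.64 and RPLP2 by 0.52 on the log2 scale (adjusted p = 0.00241, adjusted p = 0.000791 and adjusted p = 0.00302). RPL5, RPSA, RPS6, RPS26, RPS27A and RPL22, a large-subunit protein with a paralog outside the set, were lower too, with log2 fold changes from -0.74 (RPSA) to -0.46 (RPS26). All 14 Diamond-Blackfan anemia genes were lower, with a median of -0.49, against -0.46 over all 79 members, most of which were lower.

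The members that did not pass in U343 PABP-bound RNA included 4 paralogs. RPL36AL was at 142 and 127 CPM in controls and 154 and 138 after miR-137, a log2 fold change of 0.13 ± 0.10 (SE, adjusted p = 0.272), and it was the only member with a positive estimate. RPS27L had -0.11 ± 0.13 (SE, adjusted p = 0.477), and RPL3L and RPL10L, copies of RPL3 and RPL10 best known from muscle and testis, had -0.68 ± 0.42 (SE, adjusted p = 0.202) and -0.40 ± 0.28 (SE, adjusted p = 0.268) on 9 to 44 reads per RIPSeq library. Among the partners of these paralogs RPL3 (-0.67 ± 0.09 (SE, adjusted p = 0.000671)), RPL36A (-0.32 ± 0.11 (SE, adjusted p = 0.0337)) and RPS27 (-0.56 ± 0.11 (SE, adjusted p = 0.00398)) were lower, and RPL10 (-0.19 ± 0.12 (SE, adjusted p = 0.219)) and RPL39 (-0.16 ± 0.08 (SE, adjusted p = 0.128)) did not pass. RPL28, higher in U251 total RNA, had -0.16 ± 0.08 (SE, adjusted p = 0.139) here.

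In U251 PABP-bound RNA no member of 78 passed the edgeR test, in a comparison where 1.21% of all 14087 genes did (0.263% lower and 0.944% higher). CDK6, the check on the transfection, did not pass there either, so a large fall could be missed. Among the members the following counts were found. At an unadjusted p under 0.05 there were 14, and DESeq2 called 3 lower. The median was -0.34, against -0.02 over all genes, and 64 of the 78 had a negative estimate. The shares of all genes for these counts are not given here. RPL11 was at 1386 and 921 CPM in the controls and 404 and 417 after miR-137, a change of -1.46 ± 0.25 (SE, adjusted p = 0.0841), and RPL9 at 14.1 and 12.6 and 5.55 and 5.43 CPM, a change of -1.25 ± 0.24 (SE, adjusted p = 0.0956). Both miR-137 libraries were below both controls in these genes, as in 42 of the 78 members. The same count over all genes is not given here. The counts depended on the unlike control libraries. RPL28, for example, was at 413 and 81.3 CPM in the controls. Members passed in both directions when either control library was left out, but a lone control has no spread of its own. The share of all genes passing under these settings is not given here.

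**Figure D3:**
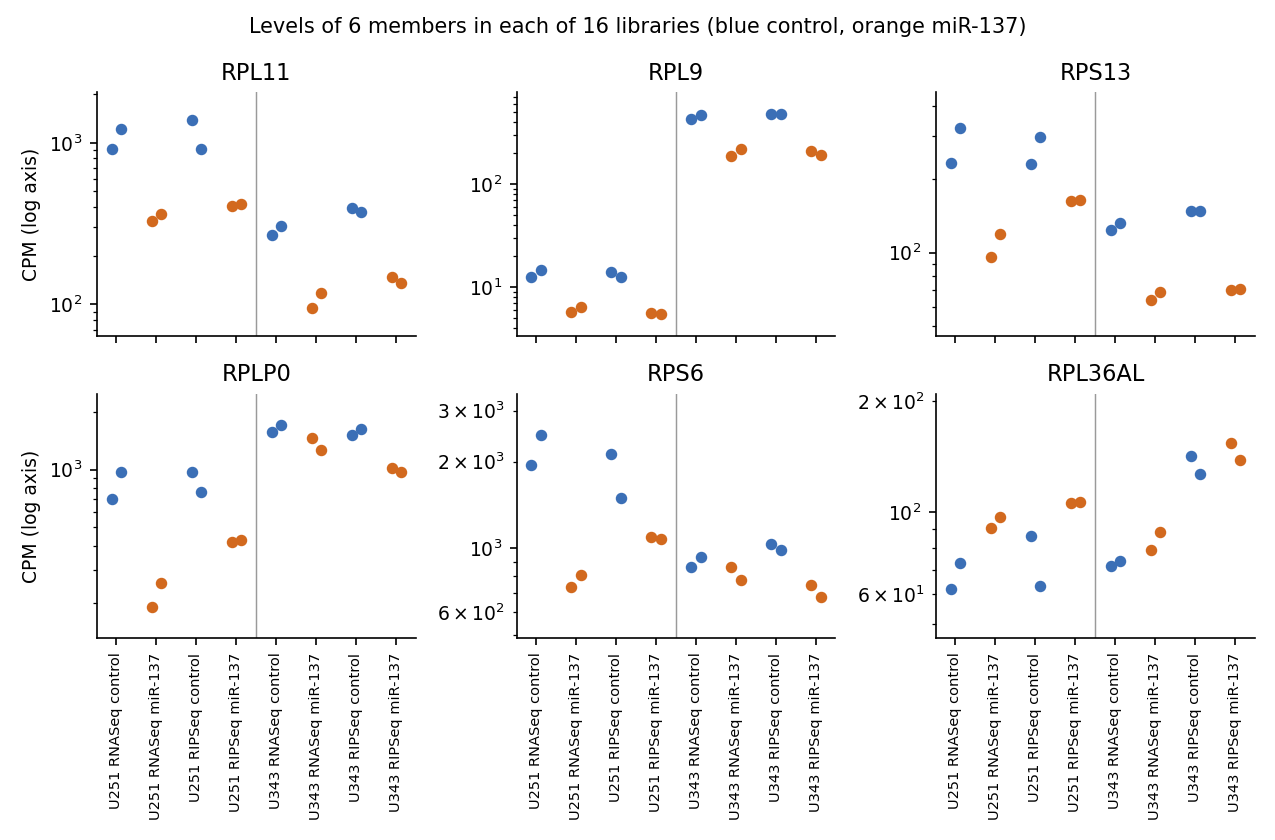
Levels of 6 members in each of the 16 libraries, in CPM on a log axis, 1 point per library, blue for control and orange for miR-137, with U251 left and U343 right of the grey line. For RPL11, RPL9 and RPS13 both miR-137 libraries lie below both controls in every line and assay, RPS6 overlaps in U343 RNASeq, and RPL36AL lies below its controls in none.

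Across experiments that share no library, 54 members were lower both in U251 total RNA and in U343 PABP-bound RNA. They are 81.8% of the 66 members lower in the first and 94.7% of the 57 lower in the second, among the 76 members tested in both. With so many members lower in each, most of this overlap follows from the counts themselves. Over all 12331 genes tested in both, 2035 were lower in both, 55.4% of those lower in the first and 53.9% of those lower in the second. All 6 members lower in U343 total RNA were among them. The study's own rule, which was applied here by a two-sided Fisher's exact test and asks that all 4 pairings of control with miR-137 libraries reach an odds ratio above 2 at an adjusted p below 0.001, called fewer. It gave 7 lower members in U251 RNASeq (RPL7, RPL11, RPS6, RPS26, RPS20, RPL15 and RPLP0), against 2.21% of all genes, and none in U251 RIPSeq, against 1.49%. In U343 it gave RPL11 and RPL9 in RNASeq, against 2.88% of all genes, and the same 2 in RIPSeq, against 3.40%. It called no member higher in any of the 4, where 6.14% and 3.47% of all genes were higher in U251 RNASeq and RIPSeq and 1.51% and 4.83% in U343 RNASeq and RIPSeq.

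Whether the change in total RNA differed between the lines was tested as an interaction. Of 80 members, 50 changed more negatively in U251 than in U343 and 1 the other way, where 25.2% of all 15550 genes passed (12.5% and 12.7% in these directions). The 80 include RPL3L, RPL10L and RPL21, with 0 to 19 reads per U251 RNASeq library, and RPL39L, with 2 to 10 per U343 RNASeq library. These passed the filter through the other line, and no difference between the lines can be read for them. The median difference, U343 minus U251, was 0.79 on the log2 scale, against -0.08 over all genes. It was 2.03 ± 0.35 (SE, adjusted p = 0.00552) for RPL7, 1.89 ± 0.24 (SE, adjusted p = 0.00203) for RPS26, 1.67 ± 0.27 (SE, adjusted p = 0.00441) for RPLP0 and 1.41 ± 0.20 (SE, adjusted p = 0.00281) for RPS6. It did not pass for RPL11 (0.22 ± 0.25 (SE, adjusted p = 0.548)), RPL9 (0.08 ± 0.20 (SE, adjusted p = 0.819)), RPS13 (0.46 ± 0.25 (SE, adjusted p = 0.219)) or RPL3 (0.34 ± 0.20 (SE, adjusted p = 0.255)), and the 1 member in the other direction was RPL28 (-0.54 ± 0.15 (SE, adjusted p = 0.0302)). Without either of the U343 control libraries, the second U251 control or the first U251 miR-137 library, fewer members passed. The share of all genes then is not given here. RPL7 and RPS26 held 15 to 141 and 43 to 262 reads per U251 RNASeq library. In U343 RNASeq they held 17896 to 23475 and 7162 to 8936. Line and library kit change together, and how reads that match several places were counted is not known, so these cannot be told apart. In PABP-bound RNA 1 member of 80, RPL41, differed between the lines (-1.27 ± 0.19 (SE, adjusted p = 0.0213)), where 3.28% of all 15959 genes did (1.22% in its direction and 2.06% in the other). RPL3L and RPL10L held 1 to 8 reads per U251 RIPSeq library and RPL39L 1 to 3 per U343 RIPSeq library, too few to read a difference.

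Within a line, the difference between the change in PABP-bound and in total RNA did not pass for any member. In U343 the estimate was more negative in PABP-bound RNA for 78 of 79 members, with a median of -0.34. An unadjusted p under 0.05 was reached by 34 members. None passed the adjusted test in edgeR, where 0.00649% of all 15413 genes did, and 1 member passed in DESeq2. The shares of all genes with a negative estimate or an unadjusted p under 0.05 are not given here. Without the second U343 miR-137 RNASeq library some members did pass, and the share of all genes then is not given here. In U251 the median difference was 0.49, with a smaller fall in PABP-bound RNA. None of 78 members passed, where 0.134% of all 14210 genes did (0.106% higher and 0.0281% lower). An unadjusted p under 0.05 was reached by 26 members and DESeq2 called 10, with no share of all genes given for either. Members passed when either U251 control RIPSeq library was left out, and the share of all genes then is not given here. The counts of 58 and 6 lower members in the 2 assays of U343 are therefore not shown to differ gene by gene.

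**Figure D4:**
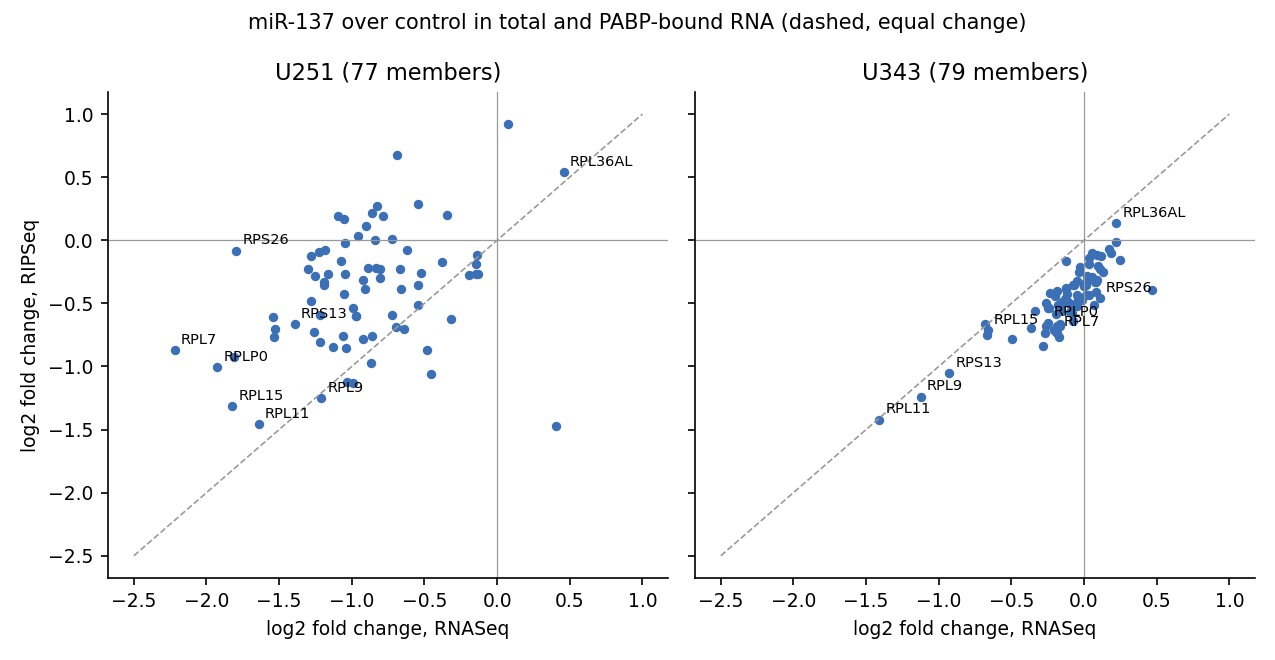
Log2 fold change after miR-137 in total RNA (x axis) and PABP-bound RNA (y axis), 1 point per member tested in both, U251 left and U343 right, with a dashed line where both are equal. In U343 nearly every point lies below the line, and RPL11, RPL9 and RPS13 lie on or near it at the lower left. In U251 most points lie above it.

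Without miR-137, the members differed between PABP-bound and total RNA of U343 about as often as other genes. Of 79 tested, 23 were lower in PABP-bound than in total RNA and 19 higher, shares near the 24.2% and 24.4% of all 14878 genes. Single members stood at either end. RPL39, which lies in the peptide exit tunnel, was at 158 and 156 CPM in total and 48.1 and 48.6 in PABP-bound RNA, a log2 difference of -1.71 ± 0.07 (SE, adjusted p = 8.92e-06). RPS21 (-1.68 ± 0.09 (SE, adjusted p = 1.60e-05)) and RPS29 (-1.64 ± 0.09 (SE, adjusted p = 2.52e-05)), both small-subunit proteins, were next. The highest in PABP-bound RNA were RPS26, at 160 and 182 CPM in total and 393 and 369 in PABP-bound RNA (1.14 ± 0.09 (SE, adjusted p = 9.24e-05)), RPL10 (1.00 ± 0.10 (SE, adjusted p = 0.000246)) and RPL36AL (0.87 ± 0.08 (SE, adjusted p = 0.000188)). After miR-137, in the U343 libraries, 24 of 79 were lower in PABP-bound RNA and 2 higher, where 8.78% and 9.29% of all genes were, with a median of -0.25. These calls did not hold when either of the RIPSeq miR-137 libraries was left out. The share of all genes passing then is not given here.

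In the U251 controls no member of 78 differed between the pools, where 14.0% of all 13242 genes did (6.14% lower and 7.87% higher). At an unadjusted p under 0.05 there were 11, and DESeq2 called 6, with no share of all genes given for either. The estimates ran from -1.49 ± 0.38 for RPL7, -1.27 ± 0.41 for RPS3A and -1.21 ± 0.33 for RPL31 to 1.20 ± 0.54 for RPLP1, 1.21 ± 0.43 for RPS15 and 2.08 ± 0.72 for RPL28 (SE). Members passed when either control RIPSeq library was left out, and the share of all genes then is not given here. After miR-137, 58 of 76 members were higher in PABP-bound RNA than in total RNA and 2 lower, where 32.4% and 33.5% of all 13655 genes were, with a median of 0.49. RPS26 (1.95 ± 0.17 (SE, adjusted p = 2.36e-05)) and RPSA (1.55 ± 0.10 (SE, adjusted p = 5.42e-06)) were among the highest. A joint fit of the 8 U251 libraries called 17 higher and 1 lower, and the share of all genes in that fit is not given here.

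Between the lines the members differed about as often as other genes, and a few differed by far more than after miR-137. In control total RNA 43 of 80 members were higher in U343 than in U251 and 22 lower, where 84.8% of all 14787 genes differed, 44.9% higher and 39.9% lower, so the count says nothing particular to the members. The 80 include RPL3L, RPL10L and RPL21, with 0 to 19 reads per U251 control library, and RPL39L, with 3 and 2 in the U343 controls. These passed the filter through the other line, so their tests are not read here. RPL21 held 7 and 19 reads in the U251 controls and 21686 and 19801 in the U343 controls, an estimated log2 difference of 9.30. RPS27 held 19 and 32 against 22672 and 21656 (8.43 ± 0.19 (SE, adjusted p = 4.14e-09)), and RPS3A 55 and 91 against 23936 and 19983 (6.90 ± 0.18 (SE, adjusted p = 6.23e-09)). RPL21 has the most annotated pseudogenes of any member, and RPS27 and RPS3A have 30 and 54. The median log2 difference was 1.93 over the 27 members with 30 or more pseudogenes, 0.16 over the 28 with at least 10, 0.02 over the 20 with fewer and 0.21 over the 5 with none, which ran from -7.80 to 6.54. Over the 75 members with a pseudogene the Spearman rank correlation of pseudogene number and log2 difference was 0.36, a description over genes of the same 4 libraries.

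RPL21 and one of its pseudogenes had near-equal counts in U343 and low counts in U251. In the U343 tables RPL21 and RPL21P28 had 21686 and 21684 reads in the first control library. In the U251 tables the same library type held 7 and 4 reads. Among genes with at least 100 reads on average, 238 pairs of genes had counts within 5% of each other in all 8 U343 libraries, and no pair did in U251. A member was in 3 of these pairs. How reads that match several places were counted is not given in the sources used here, and line, kit and counting cannot be told apart in these levels.

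Members with fewer pseudogenes differed between the lines as well. RPL39L, with no annotated pseudogene, held 199 and 273 reads in the U251 controls and 3 and 2 in the U343 controls, 223 times as many per counted read (95% exact interval 95.1 to 691, for counting error only). RPL11, with 5 pseudogenes, was lower in U343 (-1.86 ± 0.15 (SE, adjusted p = 3.71e-06)), as was RPS6, with 26 (-1.26 ± 0.14 (SE, adjusted p = 3.61e-05)). RPL3L had 0 reads in all 4 U251 RNASeq libraries, which allows up to 0.295 CPM (3 reads of the smallest library), and 13 to 19 reads in the U343 RNASeq libraries.

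**Figure D5:**
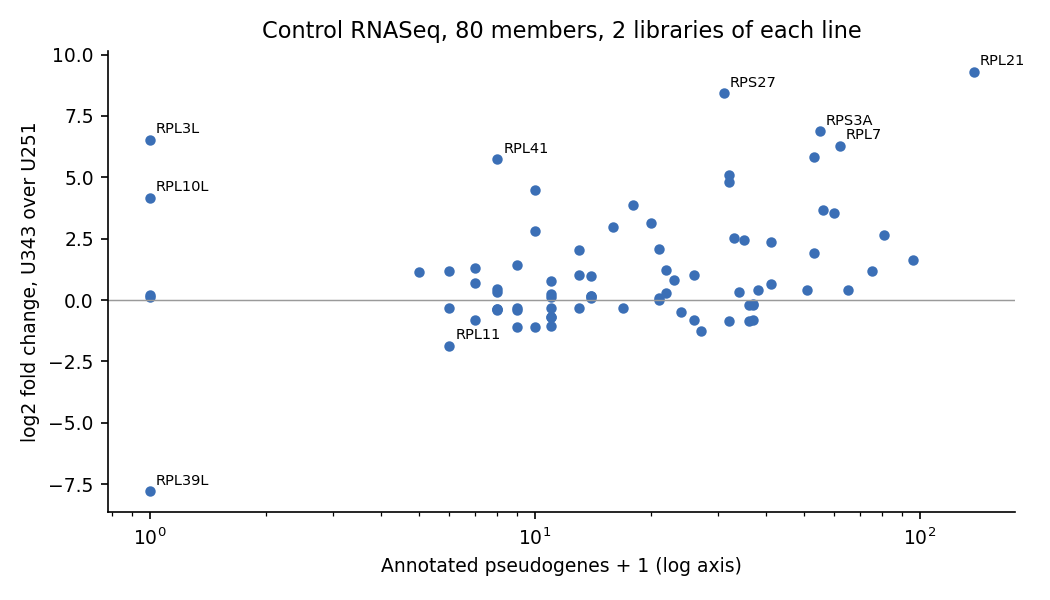
Log2 difference between U343 and U251 control RNASeq (y axis) against the number of annotated pseudogenes plus 1 (log x axis), 1 point per member, 80 in all. RPL21 is highest at 9.30 and farthest right, and RPL39L lowest at -7.80 with none. RPL3L rests on 0 reads in U251, so its height is not a bound.

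Other genes of the translation machinery were set beside the members. Of 20 further mRNAs known to carry a TOP tract, such as elongation and initiation factors, 18 were lower in U251 total RNA (90%, against 29.0% of all genes) and none higher, with a median of -0.96. EIF4B (-1.42) and EEF1G (-1.30) were lowest, and PABPC1 (0.07), which encodes a PABP, and FAU (-0.21) did not pass. In U343 the counts were nearer the background, with 7 of the 20 lower in PABP-bound RNA (35%, against 27.8% of all genes), TPT1 (-0.84) and EEF1B2 (-0.79) lowest, and 3 in total RNA (15%, against 11.7%). Genes chosen by the start sequence alone were close to the background of all genes. Of 481 genes outside the members whose annotated start is a C followed by at least 7 pyrimidines, 231 were tested in U251 total RNA, of which 32.9% were lower and 31.2% higher, with a median of -0.03.

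As the background of the counts of other gene lists, 29.0% of all genes were lower and 28.7% higher in U251 total RNA and 27.8% and 28.5% in U343 PABP-bound RNA. Mitochondrial ribosomal proteins, which build a separate ribosome, had 28 lower and 9 higher of 74 in U251 total RNA (median -0.22) and 42 lower and 8 higher in U343 PABP-bound RNA (median -0.31). Of the ribosome assembly factors 10 were lower and 6 higher of 39 in U251 total RNA, and 5 lower and 16 higher of 40 in U343 PABP-bound RNA, where HEATR1 (1.03) and BYSL (0.85) were highest. Of 19 regulators of TOP mRNAs 9 were lower and 1 higher in U251 total RNA, and 7 lower and 5 higher in U343 PABP-bound RNA. EIF4EBP2, a repressor of cap-dependent translation, was the lowest of them in both (-1.83 and -1.36). RPL22L1, the paralog of RPL22 outside the set, had log2 fold changes of -0.37 ± 0.14 (SE, adjusted p = 0.0347) in U251 total RNA, -1.56 ± 0.10 (SE, adjusted p = 0.00647) in U343 total RNA and -1.87 ± 0.09 (SE, adjusted p = 4.28e-06) in U343 PABP-bound RNA. RPL22 itself had -1.06 ± 0.17 (SE, adjusted p = 0.000146), -0.11 ± 0.11 (SE, adjusted p = 0.489) and -0.49 ± 0.08 (SE, adjusted p = 0.00151) in these comparisons.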

How the data were processed

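The authors aligned 36-cycle reads to hg18 (build per the labels) with RMAP and counted them on merged RefSeq transcripts. The deposited unit is the read count per gene, without normalization. Levels are CPM with TMM factors over the 8 libraries of a line. Fold changes came from edgeR 4.0.16 in R 4.3.3 (quasi-likelihood F test, TMM, filterByExpr), fitted within each comparison on all genes, with Benjamini-Hochberg adjustment over all genes tested and a threshold of 0.05. The alternatives were DESeq2 1.42.0, upper-quartile scaling, TMM without the members, no filter, a minimum of 50 reads on average, a replicate block, joint fits and leaving out each library. Scripts were tested on simulated data. Groups came from the labels. An additional U251 replicate named in the methods was not analysed here.

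The members and lists were chosen with earlier results of these data known. Named members were the 3 lowest and 3 highest called in each transfection comparison, the 3 lowest and 3 highest between the pools in controls and between lines, and a set list (stalk, 5S particle, RPSA, RPS6, RPS26, RPS27A, paralogs and their partners, RPL22). RPL10A, RPL37, RPL38, RPL41, RPS20 and the genes of the tables with pseudogenes were added after their values were seen, and of other lists the 2 lowest and 2 highest were eligible. Pseudogenes were counted by symbol in GRCh38.p14. Replicate numbers do not pair libraries in the labels. The correlation of replicate differences between groups ran from -0.26 to 0.40.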

Additional observations from a re-analysis of the deposited data

Results flagged for a closer look

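Groups of 2 libraries are too small for a test of outlying libraries. A tested difference between the lines marked 51 members in total RNA, 50 with a more negative change in U251 and 1 (RPL28) in U343. Of all genes 25.2% passed. The members tested include RPL3L, RPL10L, RPL21 and RPL39L, for which no difference between the lines can be read. Among the members with the strongest changes, those marked were RPL7 (U343 minus U251 2.03 ± 0.35 on the log2 scale, SE, adjusted p = 0.00552), RPLP0 (1.67 ± 0.27, adjusted p = 0.00441), RPL15 (1.15 ± 0.18, adjusted p = 0.00383) and RPL28 (-0.54 ± 0.15, adjusted p = 0.0302), by edgeR. RPL7 held only 15 to 141 reads per U251 RNASeq library. In PABP-bound RNA the difference passed for 1 member, RPL41 (-1.27 ± 0.19, adjusted p = 0.0213), and for 3.28% of all genes. RPL41 was at 23 and 23.2 CPM in the U251 RIPSeq controls and 42.7 and 43 after miR-137, and at 2059 and 1981 and 1568 and 1445 CPM in U343. This call did not pass with the replicate block or without any 1 of the miR-137 libraries or U343 controls.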

How the results depend on the processing

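Counts of members that passed the test, in either direction, were recomputed under each setting. The share of all genes passing under each setting is not given here, so these counts have no background beside them. The miR-137 comparison of U251 RNASeq gave 69, and 45 in the joint fit of the 8 libraries of the line. That of U251 RIPSeq gave 0, and 3 with DESeq2 and 9 in the joint fit, and leaving out 1 library gave 0 to 64. That of U343 RNASeq gave 6, and 10 in the joint fit, with 0 to 13 on leaving out 1 library, and that of U343 RIPSeq gave 58, with 33 to 63. Between the pools, the U251 controls gave 0, and 6 with DESeq2, 1 with TMM factors taken without the members and 16 in the joint fit, with 0 to 43 on leaving out 1 library. The U251 miR-137 libraries gave 60, and 18 in the joint fit. The U343 miR-137 libraries gave 26, and 40 with DESeq2 and 44 in the joint fit, with 0 to 34 on leaving out 1 library. The interaction with assay gave 0 in both lines, and 10 (U251) and 1 (U343) with DESeq2, with 0 to 54 and 0 to 20 on leaving out 1 library. The interaction with line gave 51 in RNASeq, with 21 to 56, and 1 in RIPSeq, with 2 by DESeq2 and 0 to 39. The cause of these shifts was not tested.

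The study's rule gave 7 lower members in U251 RNASeq, and 22 at an odds ratio over 1.5, 11 with TMM-scaled totals and 7 to 17 on leaving out 1 library. In U251 RIPSeq it gave 0, and 5 at an odds ratio over 1.5, 2 when 3 of the 4 pairs sufficed, 2 with TMM-scaled totals and 1 to 17 on leaving out 1 library. In U343 it gave 2 in each assay, and 6 (RNASeq) and 14 (RIPSeq) at an odds ratio over 1.5 and 1 (RNASeq) with TMM-scaled totals. Shares of reads moved by more than their SD without the 20 most counted other genes and, in turn, without the 3 most counted members. They became 2.27% and 2.05% in U251 RIPSeq miR-137, 4.39% and 3.52% in U343 RNASeq control, 4.08% and 3.21% in U343 RNASeq miR-137, 4.31% and 3.31% in U343 RIPSeq control, and 3.28% and 2.49% in U343 RIPSeq miR-137.

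With the replicate number as a block, 1 member passed in the miR-137 comparison of U251 RIPSeq, 6 between the pools in the U251 controls, 0 between the pools in the U343 miR-137 libraries and 0 in the interaction with line in RIPSeq. The labels do not say that a number marks a shared batch. Of the single members named, no called value changed sign under any setting run, in 1462 cases the call held, and in 189 it was lost. With 2 libraries per group a lone library left by leaving 1 out is assumed to vary like the other group. Depth limits RPL21, RPS27, RPL36A, RPS3A and RPL7 in U251, and RPL3L, RPL10L and RPL39L. RPL9, RPS26 and RPS10 also held few reads in U251 RNASeq, at 65 to 254, 43 to 262 and 78 to 325 per library.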
